A study of Mus musculus with 6 samples.

Results

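C1qa, C1qb and C1qc, the genes of the A, B and C chains of complement component C1q, were followed in bone marrow-derived macrophages (BMDM) of the mouse, which are phagocytes that mature in culture from marrow precursors. All 3 were found by their symbols among the 55291 genes of the deposited table, and all 3 were among the 12603 genes that passed the filter on low values, at least 1 TPM in at least 3 libraries. TPM (transcripts per 1000000) is a share of all transcripts after scaling for gene length, and each library was rescaled to that sum. The poly(A) RNA came from 3 libraries of BMDM without apoptotic cell (AC) treatment, here called untreated. Another 3 were of BMDM with AC treatment, here called AC pretreated. No genotype, strain or animal age, and no origin, dose or timing of the apoptotic cells, is given in the sources used here. Whether replicates are independent cultures is not said in the labels. The p-values therefore reflect the spread of these libraries alone, and that spread may be technical. The macrophage label fitted the markers, since 10 of 10 macrophage marker genes reached 1 TPM and summed to 16400 to 27500 TPM per library. Reaching 1 TPM is a low bar, which 6 of 8 neutrophil and 10 of 15 placental markers also met. Those lists summed to at most 54.8 and 140 TPM.

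C1q is the recognition molecule of the classical complement pathway. Its A, B and C chains are joined in equal numbers, each with a collagen-like stalk and a globular head, and the heads bind antibody complexes and the surface of dying cells. Bound C1q activates the proteases C1r and C1s, which pass the signal to C4 and C2, and C1q on a dying cell also helps phagocytes to engulf it. Most complement proteins are made in the liver, but C1q is made mainly by macrophages and related myeloid cells, and loss of C1q is known to slow the removal of apoptotic cells.

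The 3 genes lie side by side on chromosome 4 (mm10, minus strand) within 18.7 kb. C1qb (ENSMUSG00000036905.8) spans 136880129 to 136886187, C1qc (ENSMUSG00000036896.5) 136889804 to 136893065 and C1qa (ENSMUSG00000036887.5) 136895917 to 136898803. The gaps are 3.62 kb between C1qb and C1qc and 2.85 kb between C1qc and C1qa. Each gene has 1 coding transcript of 3 exons in GENCODE release M21, of 1040 bases for C1qa, 1088 for C1qb and 1203 for C1qc. C1qc also has a noncoding transcript of 946 bases that retains part of an intron. With it, the merged exon length of C1qc is 1931 bases, 1.61 times that of its coding transcript.

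**Figure D1:**
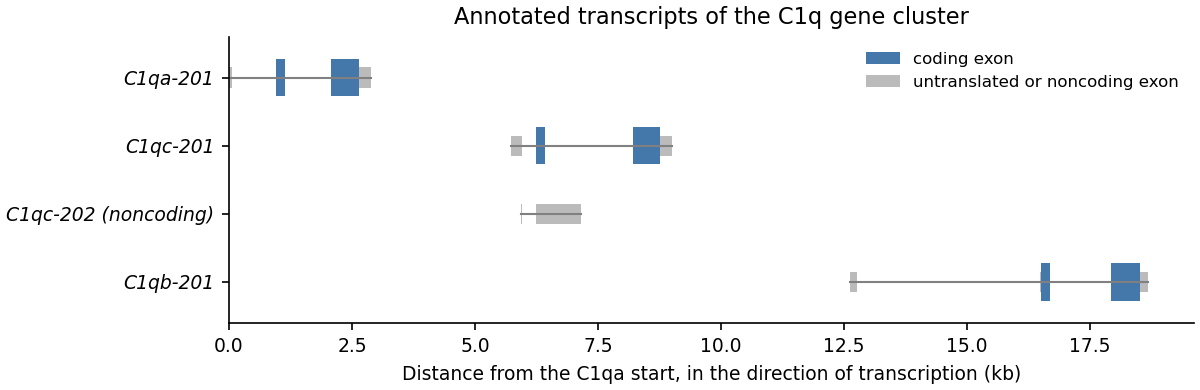
Annotated GENCODE transcripts of the C1q gene cluster, drawn by distance in kb from the C1qa start. Blue boxes are coding exons and grey boxes untranslated or noncoding exons. The 3 genes run in 1 direction within 18.7 kb, and the noncoding C1qc transcript covers intron sequence that the coding one lacks.

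Sequence upstream of the start was in the RefSeq promoter table (build GRCm38.p6, the assembly also called mm10) for 2 of the 3 genes. It is shown because the 3 genes are transcribed at high level in the same cells, and because PU.1 is a known regulator of macrophage genes. The stretches end before the first annotated start of either RefSeq or GENCODE, at chr4:136886201-136886450 for C1qb (250 bases) and chr4:136893066-136893164 for C1qc (99 bases), minus strand, 5′ to 3′. Capitals mark matches to GAGGAA, a core bound by PU.1, on either strand.
C1qb: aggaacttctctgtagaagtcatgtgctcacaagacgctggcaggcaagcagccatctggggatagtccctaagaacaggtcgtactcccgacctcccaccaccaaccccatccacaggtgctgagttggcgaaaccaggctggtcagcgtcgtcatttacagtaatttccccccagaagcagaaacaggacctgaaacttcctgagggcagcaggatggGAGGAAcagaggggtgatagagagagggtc
C1qc: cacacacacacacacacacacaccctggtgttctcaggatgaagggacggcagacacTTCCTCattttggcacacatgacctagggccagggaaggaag

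The C1qb stretch held GAGGAA 30 bases before the RefSeq start. The C1qc stretch held it on the opposite strand, 193 bases before the RefSeq start. The GENCODE start of C1qc lies 151 bases upstream of its RefSeq start, so the match is nearer to the GENCODE start. Such 6-letter matches are common: of 32851 promoter windows of 300 bases, 28.3% held GAGGAA on either strand. A match is a description of the letters and was not tested as a binding site.

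C1q transcripts were among the most abundant of these macrophages in both groups. C1qb stood at 12167, 12489 and 10388 TPM in untreated replicates 1, 2 and 3, and at 14655, 11328 and 8416 TPM in AC replicates 1, 2 and 3. AC replicate 1 was above, and AC replicate 3 below, every untreated library, so the groups overlapped. By rank among all genes, C1qb was between 4 and 11 in the 6 libraries.

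C1qa stood at 5781, 5637 and 4347 TPM in untreated replicates 1, 2 and 3, and at 6067, 3538 and 3870 TPM in the AC replicates. Here AC replicates 2 and 3 lay below every untreated library and AC replicate 1 above them all. C1qc stood at 4465, 4345 and 3637 TPM in untreated and at 4968, 3232 and 3413 TPM in AC libraries, with the same arrangement as C1qa. Ranks among all genes were 17 to 29 for C1qa and 24 to 32 for C1qc.

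The summed level of the 3 chain genes was 22412, 22472 and 18372 TPM in the untreated and 25690, 18098 and 15698 TPM in the AC libraries, that is 1.57% to 2.57% of all transcripts. Counting error was small at this depth. The 3 genes took 137502 to 301593 reads per library, of 19044752 to 32218668 reads on genes whose deposited values gave whole reads. C1qa, with the fewest reads, had 25123 to 63506, a 95% counting error of at most 1.2%. This covers counting error only.

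**Figure D2:**
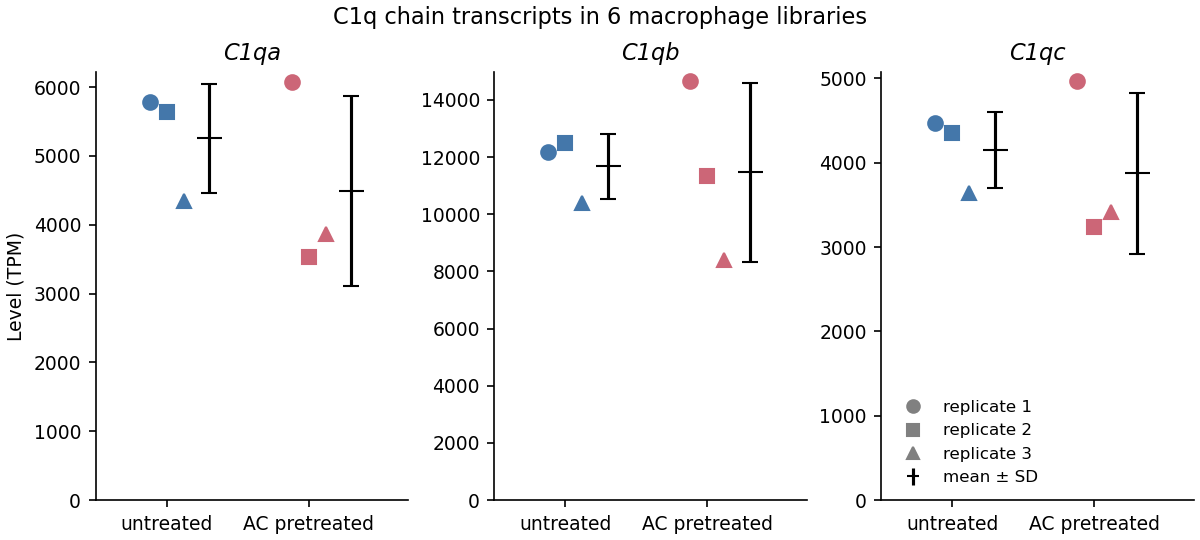
Levels of C1qa, C1qb and C1qc in TPM (linear axes from 0) in each of 3 untreated (blue) and 3 AC pretreated (red) libraries, with the replicate number as symbol shape and black bars for mean ± SD. In each panel AC replicate 1 is the highest of the 6 libraries, and the AC values are spread more widely than the untreated ones.

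The comparison between the groups asked whether C1q transcript levels change with AC pretreatment. The mean of C1qa was 5255 ± 790 TPM without and 4492 ± 1374 TPM with AC pretreatment (SD, n = 3 each). C1qb averaged 11682 ± 1131 and 11466 ± 3122 TPM, and C1qc 4149 ± 448 and 3871 ± 955 TPM. No difference was larger than the spread between replicates.

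On the log2(TPM + 1) scale, AC pretreated minus untreated, C1qa differed by -0.26 ± 0.23 (SE, 95% interval -0.79 to 0.28). C1qb differed by -0.06 ± 0.23 (95% interval -0.58 to 0.46) and C1qc by -0.12 ± 0.20 (95% interval -0.58 to 0.34). As a ratio of AC pretreated to untreated, these intervals run from 0.58 to 1.22 for C1qa, from 0.67 to 1.38 for C1qb and from 0.67 to 1.27 for C1qc, so each lies inside a 2-fold change in either direction.

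The adjusted p was 1.0 for each chain gene by limma with a mean-variance trend (2-sided, Benjamini-Hochberg over all genes tested, unadjusted p = 0.305, 0.802 and 0.563 for C1qa, C1qb and C1qc). Of the 3 genes 0 passed an adjusted p under 0.05, and over all 12603 genes 0 did (0.0%), with 164 (1.3%) at an unadjusted p under 0.05. By voom on recovered reads 0 genes passed as well, and 97 of 12210 (0.794%) had an unadjusted p under 0.05. All 3 chain genes had lower means after AC pretreatment, where 70.6% of all genes did and the median log2 difference of all genes was -0.07. The groups overlapped for all 3, and did not for 4.42% of all genes.

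C1qb turned to 0.15 without AC replicate 3, and to 0.01 with median-of-ratios scaling, which moved the median of all genes to -0.008. Without AC replicate 1 the differences were -0.49 for C1qa (adjusted p = 0.776 by limma), -0.25 for C1qb and -0.31 for C1qc. Their unadjusted p-values by limma were then 0.0256, 0.221 and 0.0716. In that setting 789 of 12445 genes had an unadjusted p under 0.05. Adjusted p-values of the 3 genes over all alternatives lay between 0.776 and 1.0.

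The libraries of the AC group were the less uniform. Over replicates, C1qa had an SD of 0.23 log2 units without and 0.42 with AC pretreatment. For C1qb it was 0.14 and 0.40, and for C1qc 0.16 and 0.34. Medians over all genes tested were 0.16 and 0.29, so the AC spread was the wider also in the median of all genes. The difference in spread was not tested.

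Because the C1q protein holds its chains in equal numbers, the ratios between the transcripts were compared within each library. C1qb was the most abundant of the 3 in all 6 libraries. For C1qa to C1qb the untreated replicates 1, 2 and 3 gave 0.475, 0.451 and 0.418, and the AC replicates gave 0.414, 0.312 and 0.460. For C1qc to C1qb the untreated ones gave 0.367, 0.348 and 0.350, and the AC ones 0.339, 0.285 and 0.406. In both, AC replicate 2 was the lowest of all libraries, since C1qa and C1qc were low there while C1qb was near its mean.

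C1qa and C1qc kept closer to each other. Their ratio was 1.295, 1.297 and 1.195 without AC and 1.221, 1.095 and 1.134 with AC, for replicates 1, 2 and 3. The AC values reached above the lowest untreated one, so the groups overlapped.

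None of the 3 ratios passed a 2-sided exact permutation test between the groups. By exact permutation the log2 difference was -0.20 for C1qa to C1qb (p = 0.4, adjusted p = 0.6 over 3 ratios), -0.06 for C1qc to C1qb (p = 0.7, adjusted p = 0.7) and -0.14 for C1qa to C1qc (p = 0.2, adjusted p = 0.6). With 3 libraries against 3 an exact permutation test cannot go below p = 0.1, so it could not have reached 0.05. Without AC replicate 2 the first became -0.04 and the second 0.06. Without AC replicate 3 the first became -0.32 and the second -0.19 (p = 0.1 each by exact permutation). With a library left out this is also the smallest p possible, so these tests could not have reached 0.05 either. The remaining AC values of both ratios lay below every untreated one.

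The order of C1qa and C1qc depended on the length used. The deposited values of C1qc gave whole reads with the merged exon length of 1931 bases, so its level was divided by a length that includes retained intron sequence. Per base of the coding transcript of 1203 bases, and with other genes left as they were, C1qc would stand at 6660 ± 719 in untreated and 6214 ± 1532 in AC pretreated libraries (n = 3 each) on the TPM scale, above C1qa in all 6 libraries. The ratio of C1qa to C1qc then lay between 0.682 and 0.808, against 1.095 to 1.297 with the merged length. C1qb remained the highest, with C1qc at 0.458 to 0.651 of it. How many reads fell on the retained intron cannot be told from gene totals. The difference between the groups is the same with either length.

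**Figure D3:**
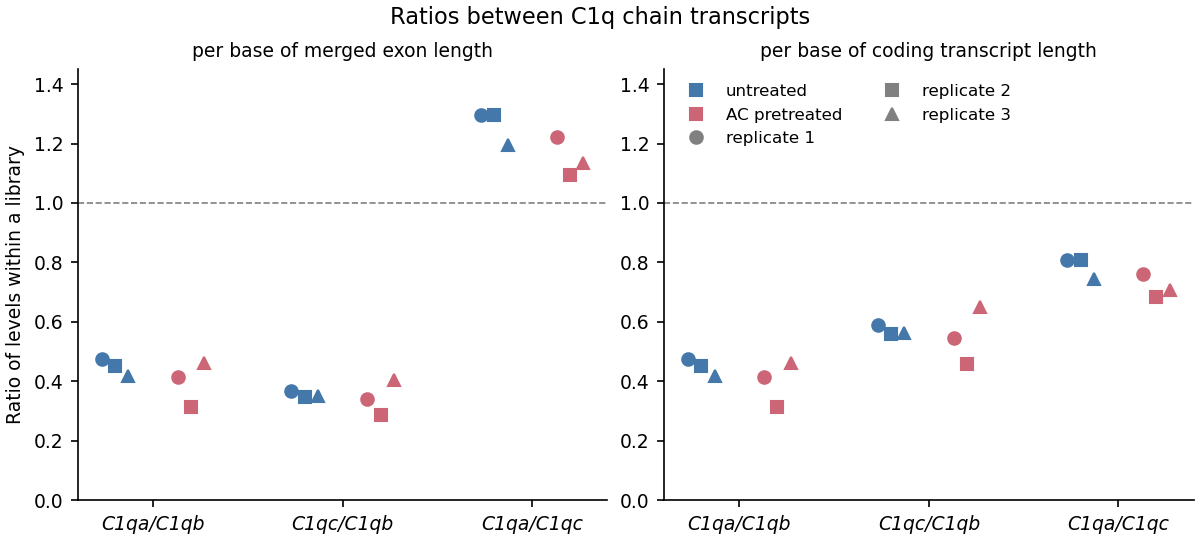
Ratios between the levels of the 3 chain transcripts within each library, per base of merged exon length (left) and of coding transcript length (right), with untreated libraries in blue, AC pretreated in red and the dashed line at equal levels. AC replicate 2 (red square) has the lowest ratios to C1qb, and the ratio of C1qa to C1qc lies above 1 on the left and below 1 on the right.

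Some library-wide properties moved with the C1q levels, gene length in part of the libraries and the level of GC-rich against GC-poor genes in all 6. The chain genes are short and rich in G and C: among tested protein-coding genes, C1qa, C1qb and C1qc stood at percentiles 2.7, 3.1 and 12.6 of exon length and at percentiles 95.5, 89.3 and 89.9 of GC content (59.5%, 57.4% and 57.5%). Libraries differed in how long and short genes stood to each other. In AC replicate 1 the median deviation from a gene's mean over the 6 libraries was 0.092 log2 units for the shortest genes (2623 genes of up to 2771 bases) and -0.417 for the longest (2624 genes of 6745 bases or more). In AC replicate 3 these medians were -0.152 and 0.241, the opposite direction. The 2622 genes with a GC content of at least 54.2% (GC-rich) had medians of 0.171, 0.069 and -0.118 in untreated replicates 1, 2 and 3, and of -0.039, -0.092 and 0.036 in AC replicates 1, 2 and 3. For the 2625 genes of up to 44.5% (GC-poor) the medians were -0.001, -0.027 and 0.089 in untreated replicates 1, 2 and 3. In AC replicates 1, 2 and 3 the GC-poor medians were -0.318, 0.18 and 0.065.

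In AC replicates 1 and 3 the chain genes deviated in the direction of the short genes, with C1qa at 0.347, C1qb at 0.361 and C1qc at 0.327 in the former, and at -0.302, -0.439 and -0.215 in the latter. The GC-rich genes had the opposite sign in both, and the sign of the chain genes in the other libraries. Against the GC-poor genes, however, the GC-rich ones stood in the direction of the chain genes in all 6 libraries. The GC-rich and GC-poor medians lay close together in AC replicate 3, at 0.036 and 0.065. GC content was not tested apart from gene length. In AC replicate 2 the short genes were at -0.007 and the long ones at 0.080, while C1qa was at -0.431, C1qb at -0.010 and C1qc at -0.294. In untreated replicate 1 the short genes (0.051) lay below the long ones (0.124), while C1qa was at 0.277. The chain genes thus followed gene length in some libraries and not in others. Removal of length and GC trends from each library, chosen after seeing the data, lowered the SD over the 6 libraries from 0.33 to 0.17 for C1qa, from 0.27 to 0.14 for C1qb and from 0.25 to 0.13 for C1qc. The differences between the groups were then -0.21 ± 0.13 for C1qa (95% interval -0.51 to 0.10), 0.007 ± 0.14 for C1qb (-0.32 to 0.33) and -0.05 ± 0.13 for C1qc (-0.35 to 0.24), with an adjusted p of 1.0 by limma for each. In AC replicate 2 the chain genes stayed apart, at -0.266 for C1qa, 0.140 for C1qb and -0.179 for C1qc.

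**Figure D4:**
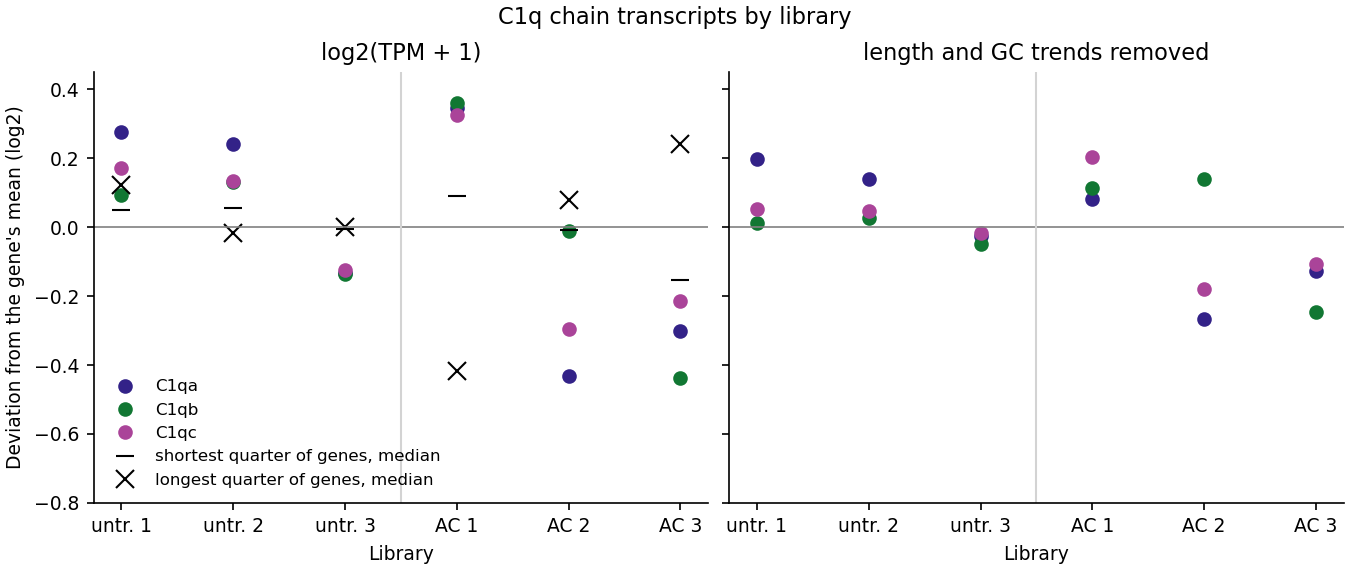
Deviation of each chain gene from its own mean over the 6 libraries (log2 units), as log2(TPM + 1) on the left and with length and GC trends removed on the right; dashes and crosses on the left are medians of the 2623 shortest and 2624 longest protein-coding genes. The spread of the chain genes is smaller on the right, and C1qb stands apart from C1qa and C1qc in AC replicate 2 in both panels.

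The genes with the pattern most like that of C1q included 3 ribosomal protein genes. Over the 6 libraries, and among 1325 genes with a mean of at least 50 TPM and an SD of at least 0.2 log2 units, the 8 genes nearest to the mean of the chain genes were Psmb9, Ino80b, Nt5c, Rpl8, Cox4i1, Rpl28, H2aj and Rpl18, with Pearson r of 0.989 to 0.999. Psmb9 encodes an immunoproteasome subunit, Rpl8, Rpl28 and Rpl18 encode ribosomal proteins and Cox4i1 a subunit of cytochrome c oxidase. Rpl8 stood at 1399, 1401 and 1188 TPM in untreated and at 1651, 1068 and 1010 TPM in AC replicates 1, 2 and 3. Like the chain genes, it was highest in AC replicate 1. The 7 with a matched length had GC contents of 52.6% to 60.5%. These r values share libraries and scaling, and are a description.

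A few libraries stood apart in other genes. Lyz2, the lysozyme gene, was at 83.7 TPM in untreated replicate 1 and at 9270 to 12451 TPM elsewhere, and without that library the differences were -0.18 for C1qa, -0.03 for C1qb and -0.07 for C1qc. The small RNA gene Gm23935 took 73936 TPM in AC replicate 3, and with scaling over protein-coding genes alone the differences were -0.22, -0.02 and -0.09. A list of 15 placental genes summed to 14.5 and 31.3 TPM in untreated replicates 1 and 2, to 29.4 and 140 TPM in AC replicates 1 and 2, and to 0 in replicate 3 of both groups. Its highest sum was in AC replicate 2, the library with the lowest ratios to C1qb, and its part in that was not tested. The 6 erythroid markers summed to 1.65, 3.47 and 0.0652 TPM in untreated and to 6.66, 17.5 and 0.357 TPM in AC replicates 1, 2 and 3, also highest in AC replicate 2 and lowest in replicate 3 of each group.

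Among the 4 libraries with placental transcripts the differences were -0.30 for C1qa, 0.06 for C1qb and -0.14 for C1qc. Between the other 2 libraries they were -0.17, -0.30 and -0.09, with no test. Markers of other leukocytes were low: of 12 thymocyte and T cell markers 11 stayed below 1 TPM, Cd3d, Cd8b1 and Themis were at 0, and the list summed to at most 16.2 TPM in untreated and 18.0 TPM in AC libraries. The 6 dendritic cell markers, a cell type that also makes C1q, summed to 5.85 to 11.2 and 6.33 to 9.25 TPM. The 8 neutrophil markers summed to 23.4 to 54.8 and 25.0 to 42.4 TPM, and the 6 B cell markers to 2.68 to 4.21 and 2.51 to 3.67 TPM. In bulk libraries, fewer cells of a type and less RNA per cell cannot be told apart.

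Around C1q, 10 lists of 112 genes were examined, of which 52 passed the filter. Of these 52, 0 passed an adjusted p under 0.05 in either direction by limma, against 0.0% of all genes. An unadjusted p under 0.05 by limma was found for 1 of the 52, against 1.3% of all genes. Lower means were found for 40 of the 52 (76.9%, against 70.6% of all genes), with a median log2 difference of -0.04. The groups did not overlap for 4 of the 52 (7.69%, against 4.42% of all genes).

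The partners that C1q needs to start the cascade were much lower than C1q itself. C1ra, which encodes the protease C1r, had means of 18.8 ± 3.30 TPM without and 16.7 ± 2.25 TPM with AC pretreatment, a log2 difference of -0.16 ± 0.19 (n = 3 each, as for the values that follow). C1s1 and C1s2, the genes of the protease C1s, stayed at or below 0.104 TPM in every library. Serping1, which encodes the C1 inhibitor, reached at most 0.378 TPM. C1rl, a C1r-like protease gene, differed by -0.15 ± 0.20. Of this list 2 of 6 genes passed the filter, both with lower means, where 70.6% of all genes had a lower mean.

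Downstream in the cascade, the early components C3, C4b and C2 passed the filter, and of the late ones C8g alone did, at up to 6.8 TPM. C3, the central component, stood at 124, 111 and 44.5 TPM in untreated and at 98.3, 54.7 and 69.8 TPM in AC replicates, a log2 difference of -0.23 ± 0.38. C4b differed by -0.06 ± 0.20, at 12.9 ± 2.16 and 12.4 ± 2.56 TPM, and its reads can be shared with its close copy C4a. C2 differed by -0.23 ± 0.31, near 1 TPM. Hc, which encodes C5, was at 0 in every library, as were C7, C8a and C8b. Of the 11 genes 4 passed the filter, all 4 with lower means, where 70.6% of all genes had a lower mean. The median of the 4 was -0.15, against -0.07 for all genes.

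In the lectin and alternative pathway list, 3 of 9 genes passed the filter, Cfp, Cfb and Fcna. Fcna, which encodes a ficolin, stood at 8.81 to 13.8 TPM in untreated and 10.5 to 11.8 TPM in AC libraries. Cfp, which encodes properdin, averaged 1347 ± 239 and 1406 ± 317 TPM, a log2 difference of 0.06 ± 0.21. Cfb, which encodes factor B, was at 19.0, 16.1 and 23.1 TPM in untreated and at 7.61, 7.31 and 21.3 TPM in AC replicates 1, 2 and 3, a difference of -0.79 ± 0.37 (adjusted p = 1.0 by limma). AC replicate 3 thus lay among the untreated libraries for Cfb. Without it the difference was -1.25 (unadjusted p = 0.00027, adjusted p = 0.324 by limma), and adjusted p-values over the alternatives lay between 0.324 and 1.0. In the fit without AC replicate 3, 476 of 12307 genes had an unadjusted p under 0.05 by limma. With the 4 libraries that held placental transcripts Cfb differed by -1.13, and with the remaining 2 by -0.11 (no test). Among the regulators, Cd55, which limits the C3 convertases on cells, differed by -0.22 ± 0.27.

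Of 11 genes of proteins reported to bind C1q, 7 passed the filter. Calr, which encodes calreticulin, averaged 791 ± 153 and 817 ± 71.8 TPM (log2 difference 0.06 ± 0.17). Lrp1, an endocytic receptor gene, averaged 247 ± 88.4 and 240 ± 136 TPM (-0.13 ± 0.39). C1qbp, a gene named for binding to the globular heads, differed by -0.11 ± 0.15. Lair1, an inhibitory collagen receptor gene, was at 159, 156 and 149 TPM in untreated and at 116, 141 and 123 TPM in AC libraries, a difference of -0.29 ± 0.13 (unadjusted p = 0.0559, adjusted p = 1.0 by limma). The groups did not overlap for Lair1.

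Of the complement receptors 7 of 8 passed the filter. Itgam, the alpha chain gene of complement receptor 3, was at 388, 375 and 412 TPM in untreated and at 351, 323 and 310 TPM in AC libraries, a difference of -0.26 ± 0.12 (unadjusted p = 0.0715, adjusted p = 1.0 by limma). Its groups did not overlap. Vsig4, a receptor gene for C3 fragments, differed by 0.30 ± 0.36. That value rested on single libraries, at 0.01 without AC replicate 2, 0.05 without untreated replicate 1 and 0.64 without AC replicate 1.

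Enzymes that hydroxylate and fold collagen-like stalks passed the filter for 8 of 13 genes. P4ha1, a prolyl hydroxylase gene, averaged 104 ± 2.84 and 98.5 ± 5.76 TPM (-0.08 ± 0.12), and Plod1, a lysyl hydroxylase gene, differed by -0.16 ± 0.15. Of 26 other genes of proteins with a C1q-type head or a related name 4 passed, with C1qtnf12 at 42.5 ± 0.488 and 40.8 ± 1.40 TPM (-0.06 ± 0.13) and Emilin1 at -0.18 ± 0.24. The highest value of any of these 26 genes in any library was 63.5 TPM (Emilin2), below every value of the chain genes.

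All 12 macrophage transcription factor genes passed the filter. Spi1, which encodes PU.1, averaged 624 ± 88.8 and 561 ± 111 TPM, a log2 difference of -0.16 ± 0.18. Nr1h3, which encodes the sterol receptor LXR alpha, differed by 0.22 ± 0.13, with groups that did not overlap. Cebpb averaged 145 ± 23.8 and 200 ± 37.3 TPM, a difference of 0.46 ± 0.19 (unadjusted p = 0.0398, adjusted p = 1.0 by limma), and was the 1 gene of the 52 with an unadjusted p under 0.05. Its groups overlapped, with AC replicate 2 at 160 TPM below untreated replicate 2 at 169 TPM. On leaving out 1 library its unadjusted p by limma ranged from 0.0139 to 0.137.

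The genes around the cluster did not share its level. Epha8 was at 0 in every library and Ephb2 stayed below 1 TPM. Zbtb40 averaged 4.91 ± 0.701 and 4.85 ± 1.11 TPM, a log2 difference of -0.02 ± 0.22. Cdc42, a small GTPase gene farther along the chromosome, averaged 1039 ± 56.8 and 996 ± 128 TPM (-0.07 ± 0.14).

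**Figure D5:**
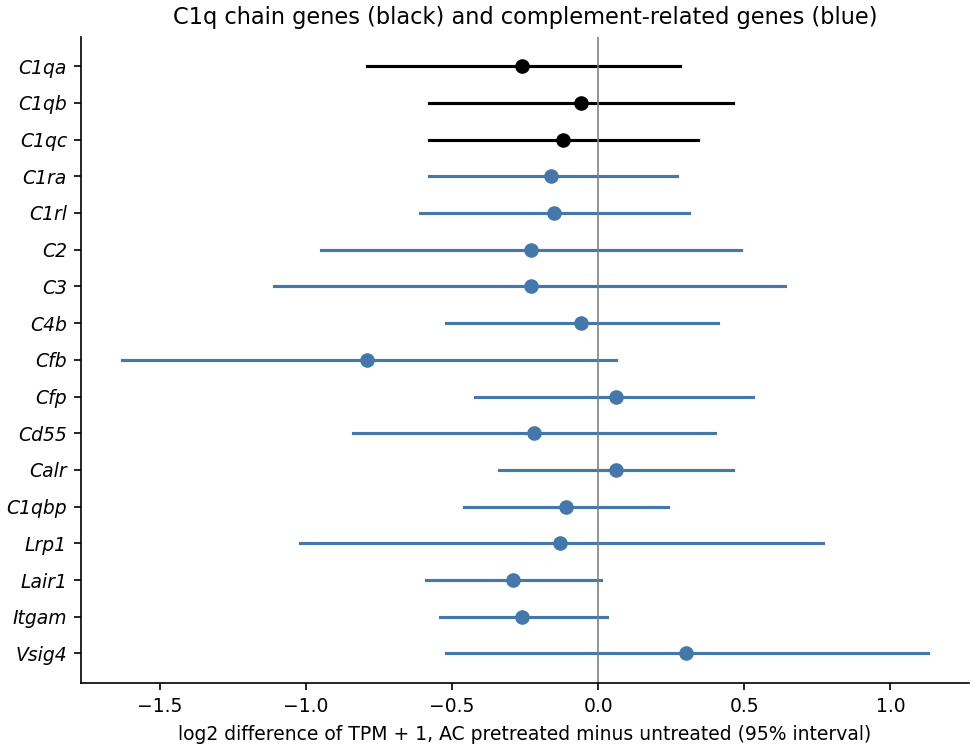
Log2 differences on the log2(TPM + 1) scale, AC pretreated minus untreated, with 95% intervals from limma (n = 3 libraries per group), for the C1q chain genes (black) and complement-related genes named in the text (blue). Every interval shown includes 0.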

How the data were processed

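RNA-seq covered 6 libraries of poly(A) RNA, read from both ends on an Illumina sequencer per the labels' protocols. Tools listed in the submitters' processing notes are featureCounts 2.0.3, Subread and STAR 2.7.10a, with the build mm10 and no role or order. For strand setting and annotation the sources used here give nothing. The table the authors deposited is called TPM and holds 1 signal value for each gene in each library, with column sums of 54732 to 92831. Multiplied by GENCODE M21 exon length and divided by 8.57, the deposited signal gave whole reads in all libraries for 23490 of 23870 genes (tolerance 0.02), so it is a count per exon base not scaled for depth. Columns were rescaled to 1000000.

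Genes that reached 1 TPM in 3 or more libraries were fitted with limma 3.58.1 (R 4.3.3, trend) on log2(TPM + 1), with Benjamini-Hochberg adjustment. The fit was checked on simulated counts with a preset spread and no length or GC trends. That check does not give the error rate or power in these data. Ratios used exact permutation tests. Replicate pairs differed beyond sampling noise (chi-square per degree of freedom 19.5 to 130). Named genes were the chain genes, up to 2 per list with the smallest p, a set of 11 and the 8 most alike without predicted names. C1s2, C7, C8a, C8b, C8g, Hc, Emilin2, Fcna, Epha8, Ephb2, Gm22279 and the markers at 0 fall outside it and were chosen after their values were seen. A few named genes are left out of the text and not reported here. Members and lists were chosen with earlier results of these data known. Tables and figures were made with matplotlib 3.10.9, scipy 1.17.1 and pandas 2.3.3 under Python 3.11.15.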

Additional observations from a re-analysis of the deposited data

How the results depend on the processing

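No chain gene passed the threshold under any alternative run (other pseudocounts, filters, scalings, variance models, voom on recovered reads, the replicate block, each library left out, libraries with placental transcripts, and trends removed). C1qa and C1qc kept their direction in these, and C1qb became 0.01 with median-of-ratios scaling, 0.06 in libraries with placental transcripts and 0.007 with length and GC trends removed. On leaving out 1 library, C1qa ranged from -0.49 to -0.11, C1qb from -0.25 to 0.15 and C1qc from -0.31 to -0.005. Ranges for ratios were -0.32 to -0.04 (C1qa to C1qb), -0.19 to 0.06 (C1qc to C1qb) and -0.18 to -0.10 (C1qa to C1qc), and the summed level differed by -4187 to 809 TPM. Between the libraries without placental transcripts the first pair of ratios differed by 0.14 and 0.21. Genes called over the whole table were 12 with values as deposited and 1 (Gm22279) without the variance trend. The cause of these changes was not tested. Listed genes called stayed at 0 throughout.

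Over all genes tested, correlations of same-numbered deviations were -0.06, 0.01 and 0.17, and not every library correlated best with its own number. The placental and erythroid sums, however, were highest in replicate 2 and lowest in replicate 3 of both groups. Whether the replicate numbers pair the samples cannot be told from these values. With the replicate block C1qa differed by -0.26, C1qb by -0.06 and C1qc by -0.12, 0 genes were called, and ratio tests gave p = 0.5, 0.75 and 0.25 by exact permutation within pairs.

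Of 23 other named genes, signs turned on leaving out 1 library for C3 (-0.69 to 0.04), Cfp (-0.12 to 0.16), Emilin1 (-0.37 to 0.03), Cdc42 (-0.17 to 0.007), Zbtb40 (-0.17 to 0.08), C4b (-0.21 to 0.05), Calr (-0.09 to 0.20) and Lrp1 (-0.56 to 0.20). With median-of-ratios scaling C1qtnf12 became 0.008, Cdc42 0.002, Zbtb40 0.03 and C4b 0.006; with values as deposited Cfp became -0.01 and Calr -0.009. In libraries with placental transcripts C1qbp and Cdc42 became 0.05 each. Between the 2 libraries without them, with no test, signs turned for Lrp1 (1.17), C3 (0.64), Emilin1 (0.53), C4b and Zbtb40 (0.47 each), Cd55 and Plod1 (0.16 each), C1ra (0.11) and Calr (-0.10). Zbtb40 became 0.006 with scaling over protein-coding genes and 0.001 by voom. Depth limits genes near 1 TPM, such as C2, and not the chain genes.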
